A study of Mus musculus with 20 samples.

Results

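The genes described here build the machinery that copies DNA and the enzymes that supply its building blocks. They were 43 listed symbols, of which 40 were found under a single symbol on the array, among 8251 genes in all. Each gene is represented by its brightest probe set, out of 54 for the 40 genes. Pole and Impdh2 had 0 probe sets named for them, and both probe sets of Tyms (thymidylate synthase) were shared with a second symbol, so these 3 are not analysed here. The probe set of Mcm6 did not exceed its array's 40th percentile on any of the 20 arrays, and Mcm6 was not tested. The other 39 passed the filter on dim values together with 6279 genes in all.

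RNA came from CD8 T cells of OT-1 mice, C57Bl6 animals of 6 to 8 weeks whose T cells carry a transgenic receptor for an ovalbumin peptide presented by H-2Kb. CD44lo cells were obtained from lymph nodes by negative enrichment and either left unstimulated (naive, 0 h, 3 arrays) or cultured on latex beads bearing that peptide on H-2Kb together with B7-1, a costimulatory ligand, a stimulus the labels call Ag-B7. At 48 h there were 4 arrays of Ag-B7 alone, 3 of Ag-B7+IL12 and 3 of Ag-B7+IFNa/b, with murine IL-12 or universal type I interferon added. These 3 stimuli had 1 array each at 24 h and at 72 h, and Ag-B7+TSA, with the histone deacetylase inhibitor trichostatin A, had 1 array at 72 h. Every culture held human IL-2, and no group was cultured without antigen, so antigen with B7-1, IL-2 and time in culture cannot be told apart. The labels call the replicates biological, without saying whether they came from separate mice or cultures, and p-values measure the spread between these arrays. The design compares unstimulated cells, cells given antigen with B7-1 and cells also given a cytokine, over the first days of culture.

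Chromosome copying starts when the origin recognition complex, with Cdc6 and Cdt1, loads the Mcm2 to Mcm7 helicase onto DNA, a step called licensing that geminin (Gmnn) holds back by binding Cdt1. Cdc45 turns the loaded helicase into a moving fork. There, primase and polymerase alpha lay down primers, the clamp loader of Rfc subunits places the Pcna ring, polymerases delta and epsilon extend the strands, and Fen1 and Lig1 join the fragments. Naive T cells rest outside the cell cycle and divide rapidly once stimulated, so this machinery and ribonucleotide reductase, which makes deoxynucleotides, are known as markers of T cells entering S phase. In RNA of a whole culture, a difference in the share of cells in S phase cannot be told apart from a difference in RNA per cell.

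Array quality differed between naive and stimulated cells. The median intensity was 232 to 507 over the 20 arrays, highest on naive replicate 2, and actin probe sets at the 3' end read 2.06 and 1.61 times those at the 5' end on naive replicates 2 and 3, and up to 1.15 times on stimulated arrays. All 10 CD8 T cell markers on the array were above the 40th percentile on every array. The tested markers of B cells, myeloid cells, CD4 T cells, red cells or platelets and stroma were 16. Of these, 14 were called lower in Ag-B7 at 48 h than in naive cells, against 35.6% of all genes. The summed intensity of the myeloid markers was 3671 to 10538 on naive arrays and 842 to 3099 on stimulated ones, and that of the 7 B cell markers 2361 to 4670 against 712 to 1894. The same sums were 6105 to 14312 against 279 to 667 for 2 red cell and platelet markers, 4515 to 11658 against 1890 to 3926 for 5 stromal markers and 585 to 1347 against 57.4 to 508 for the CD4 marker, while the single NK cell marker was below the 40th percentile on all arrays. The part of other cells and of RNA quality in the differences from naive cells was not tested.

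After 48 h on Ag-B7, 32 of the 39 tested genes were higher than in naive cells, 0 were lower and 7 were not called (limma, adjusted p under 0.05). Over all genes tested, 26.1% were called higher and 35.6% lower. The median difference of the 39 genes was 1.89 on the log2 scale, against -0.23 for all genes. The spread among the members was wide, from -0.43 (Umps) to 4.71 (Rrm1, 26.1-fold). For 30 of the 39 the 4 Ag-B7 arrays all lay above the 3 naive arrays, against 24.4% of all genes. Every difference here is between means of log2(intensity + 46.39), a scale on which changes of dim genes are understated, with limma's standard error after ±.

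The members stood above the median gene under each scaling of the arrays. Quantile normalization, median centring and scaling to the spike-in controls moved the median of all genes to 0.04, 0.43 and 1.30. The median member then stood 1.81, 2.15 and 2.16 above it, compared with 2.12 as deposited. Median centring and spike-in scaling multiply each array by a common factor, so they could change this distance only through the pseudocount. Quantile normalization was the scaling that could change it otherwise. The split of all called genes, 1640 higher and 2236 lower, became 2584 and 943 with median centring and 3781 and 95 with spike-in scaling.

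**Figure D1:**
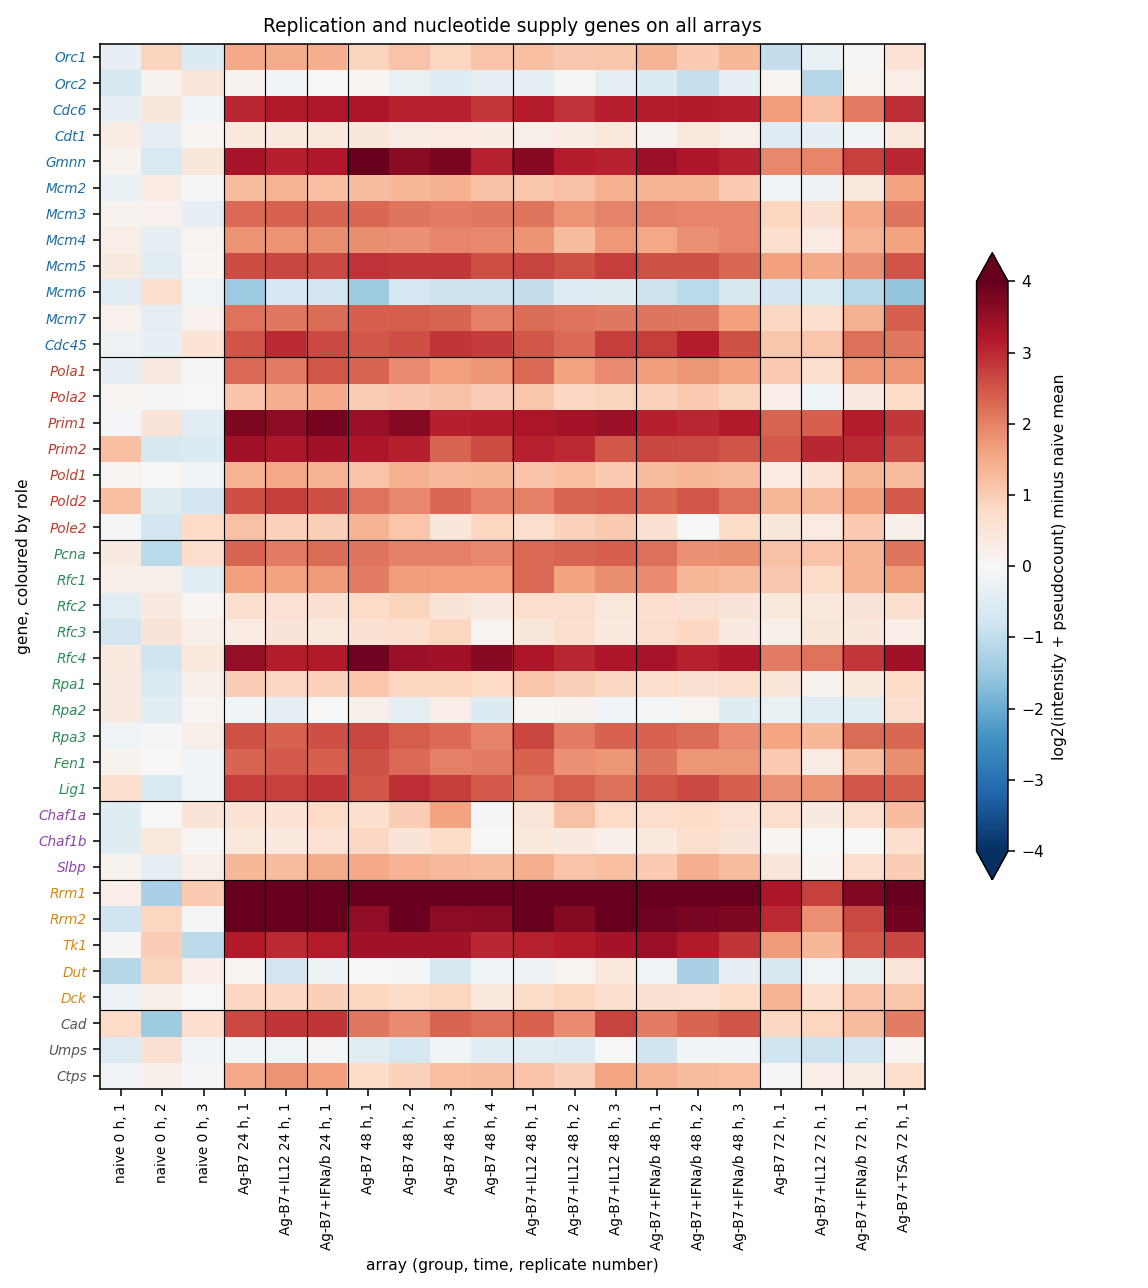
Each row is 1 of the 40 genes, coloured by role, and each column 1 of the 20 arrays; colour gives log2(intensity + pseudocount) minus the mean of the 3 naive arrays, with values past 4 in either direction drawn at the end of the scale. Most rows are red from 24 h on and paler on the 72 h arrays of Ag-B7 and Ag-B7+IL12, while Orc2, Rpa2, Dut, Umps and the untested Mcm6 show no red block.

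Licensing and helicase genes rose in 9 of 11 tested cases, with a median of 2.16. Geminin, the inhibitor of licensing, showed the largest difference of this group. Gmnn read 8.12, 7.34 and 8.43 on the naive arrays and 11.94, 11.59, 11.74 and 11.05 on the Ag-B7 arrays, on the log2 scale. The groups were far apart, with a difference of 3.61 ± 0.27 and an adjusted p of 2.16e-08. Cdc6, which helps load the helicase, read 8.49, 9.28 and 8.68 in naive cells and 12.09, 11.91, 11.89 and 11.65 after stimulation. Its difference was 3.07 ± 0.20 (adjusted p 3.72e-09), or 8.40-fold. Mcm5, a helicase subunit, read 11.45, 10.63 and 11.17 on the naive arrays and 13.97, 13.90, 13.91 and 13.67 on the Ag-B7 arrays. That is 2.78 ± 0.18, with an SD of 0.13 among the Ag-B7 arrays (n = 4).

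The other measured helicase subunits rose less than Mcm5: Mcm7 by 2.30, Mcm3 by 2.16, Mcm4 by 1.89 and Mcm2 by 1.29, all without overlap between the groups. A second probe set of Mcm3, dimmer than the first, differed by 2.39. Cdc45 differed by 2.69 ± 0.23. Orc1, the regulated subunit of the origin complex, was called at 1.00 ± 0.29 (adjusted p 0.00686), but its naive arrays were spread: 8.28, 9.51 and 8.06 against 9.49, 9.76, 9.46 and 9.74. Naive replicate 2 lay within the Ag-B7 range.

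Orc2 and Cdt1 were not called. Orc2, a core subunit of the origin complex, read 8.34, 9.12 and 9.45 in naive cells and 9.04, 8.67, 8.46 and 8.62 on Ag-B7. The difference was -0.27 ± 0.29 (adjusted p 0.43), and its sign turned with quantile normalization, to 0.31, and with spike-in scaling, to 1.26. Cdt1, the loading partner that geminin binds, was bright already in naive cells, at 12.51, 11.83 and 12.30, and read 12.67, 12.53, 12.56 and 12.52 on Ag-B7. Its difference of 0.35 ± 0.17 missed the threshold (adjusted p 0.0836) although the groups did not overlap, and it was called at 0.50 without naive replicate 1 (adjusted p 0.0196). A second, dimmer probe set of Cdt1 differed by -0.27.

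All 7 tested polymerase and primase genes were higher on Ag-B7. The primase pair led: Prim1, the catalytic subunit, read 7.17, 7.74 and 6.75 in naive cells and 10.67, 10.88, 10.34 and 10.35 on Ag-B7, and Prim2, its partner, read 8.62, 6.78 and 6.87 against 10.65, 10.54, 9.76 and 10.05. The differences were 3.34 ± 0.24 and 2.82 ± 0.37, or 10.1-fold and 7.08-fold. Naive replicate 1 was the highest of its group for Prim2 and still below every Ag-B7 array, and without it the difference was 3.42, or 10.7-fold.

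Polymerase delta, the lagging strand enzyme, was represented by Pold1 (1.30 ± 0.15) and Pold2 (2.10 ± 0.33). Pold2 read 11.21, 9.52 and 9.27 on the naive arrays and 12.18, 11.93, 12.31 and 11.98 on the Ag-B7 arrays, and differed by 2.71 without naive replicate 1. The polymerase alpha genes Pola1 and Pola2 differed by 1.91 ± 0.22 and 1.06 ± 0.16. Pole2, a subunit of polymerase epsilon, moved least: 8.54, 7.85 and 9.35 against 9.94, 9.70, 9.02 and 9.43, a difference of 0.94 ± 0.33 (adjusted p 0.0208) with overlapping arrays. Its call was lost without naive replicate 2 (0.58, adjusted p 0.128) and without Ag-B7 replicate 1 (0.80, adjusted p 0.0636).

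Among the 10 genes of the clamp, the clamp loader, the single-strand binding protein RPA and fragment joining, 8 were higher and 2 were not called. Rfc4, a small subunit of the loader, read 8.31, 7.10 and 8.32 in naive cells and 11.81, 11.37, 11.26 and 11.55 on Ag-B7, a difference of 3.59 ± 0.26. Loader subunits differed in size of response: Rfc1, the large subunit, by 1.76 ± 0.23, Rfc2 by 0.64 ± 0.20, and Rfc3 by 0.55 ± 0.29 (adjusted p 0.102). Rfc3 overlapped, with 8.29, 9.56 and 9.27 against 9.65, 9.67, 9.90 and 9.16. Rfc3 was called without naive replicate 2 (0.81, adjusted p 0.0259). It was also called with quantile normalization (1.04, adjusted p 0.00492 by limma), median centring and spike-in scaling. The call of Rfc2 was lost without naive replicate 1 and with quantile normalization.

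DNA ligase Lig1 read 9.61, 8.33 and 8.78 before stimulation and 11.38, 11.86, 11.67 and 11.36 after it, a difference of 2.66 ± 0.25. The flap nuclease Fen1 differed by 2.23 ± 0.20. Pcna, the sliding clamp, was bright in all cells: its intensity was 5562, 2039 and 7128 on the naive arrays and 19467, 17555, 17803 and 16412 on the Ag-B7 arrays, a difference of 2.03 ± 0.29.

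The 3 subunits of RPA, which together coat single-stranded DNA, did not move by the same amount. Rpa3, the smallest, had an intensity of 410.02, 450.2 and 567 against 3284, 2713, 2443 and 1995 (a log2 difference of 2.34 ± 0.21), and Rpa1, the largest, differed by 0.91 ± 0.19. The middle subunit Rpa2 read 9.92, 9.11 and 9.66 in naive cells and 9.78, 9.19, 9.81 and 9.03 on Ag-B7. That is -0.11 ± 0.27 (adjusted p 0.736), and the sign turned in 6 of the alternatives, among them quantile normalization (0.35) and leaving out naive replicate 1 (0.07).

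Of the 3 genes tied to chromatin assembly, 2 were called. Slbp, which binds histone mRNA, read 10.07, 9.56 and 10.16 in naive cells and 11.44, 11.31, 11.22 and 11.15 on Ag-B7 (1.35 ± 0.19). The subunits of chromatin assembly factor 1, which deposits histones behind the fork, were near the threshold. Chaf1a read 8.65, 9.12 and 9.64 against 9.82, 10.13, 10.74 and 9.09, a difference of 0.81 ± 0.33 with an adjusted p of 0.0412. Chaf1b read 9.18, 10.08 and 9.72 against 10.49, 10.18, 10.39 and 9.67, or 0.52 ± 0.25 with an adjusted p of 0.0752. Both overlapped between the groups, and the call of Chaf1a was lost when any of 7 single arrays was left out, with an adjusted p of 0.174 without naive replicate 1 at the weakest.

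Deoxynucleotide supply held the largest rises. Rrm1, the large subunit of ribonucleotide reductase, had an intensity of 381, 96.7 and 684 on the naive arrays and 9121, 10432, 9963 and 7614 on the Ag-B7 arrays. On the log2 scale that was 4.71 ± 0.35 (adjusted p 2.75e-08), and 4.05, or 16.6-fold, without naive replicate 2. Rrm2, the small subunit, read 7.99, 9.62 and 8.72 against 12.32, 12.72, 12.37 and 12.38, a difference of 3.67 ± 0.27 and 12.7-fold. Thymidine kinase Tk1, which salvages thymidine, had an intensity of 634, 1265 and 271 in naive cells and 6638, 6678, 6716 and 5248 after stimulation (3.27 ± 0.32).

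Dck, the deoxycytidine kinase of the salvage route, differed by only 0.72 ± 0.17 from a bright naive level. Dut, which removes dUTP, was dim and read 6.84, 8.89 and 8.26 in naive cells and 7.98, 7.94, 7.36 and 7.83 on Ag-B7. Its difference of -0.22 ± 0.44 had the widest error of all members, and its sign turned without naive replicate 2 (0.23) and in 4 other alternatives. Its probe set was above the 40th percentile on 12 of the 20 arrays.

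In pyrimidine ribonucleotide synthesis, Cad, which carries out the opening steps, read 9.94, 7.74 and 9.84 against 11.28, 11.05, 11.49 and 11.37 (2.12 ± 0.39). Naive replicate 2 was far below the others, and without it the difference was 1.41. Ctps, CTP synthase, read 11.15, 11.48 and 11.24 against 12.02, 12.21, 12.51 and 12.55 (1.03 ± 0.19). Umps, which completes UMP, read 10.20, 11.32 and 10.62 against 10.27, 10.01, 10.60 and 10.27, a difference of -0.43 ± 0.26 (adjusted p 0.168). Without naive replicate 1 it was called lower (-0.68, adjusted p 0.0376), and Orc2 and Dut were then called lower in Ag-B7+IFNa/b. For Umps the probe sets disagreed: a dimmer one, above the 40th percentile on 16 arrays, differed by 2.19, and another, above it on 1 array, by -0.74. Dim second probe sets of Lig1, Mcm5, Pola2 and Pold1 differed by -1.80, -1.78, -1.93 and -2.38, opposite to the bright ones, and were above that percentile on 5 to 8 of the 20 arrays. The effect of averaging over probe sets on the calls of these 4 genes was not tested.

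**Figure D2:**
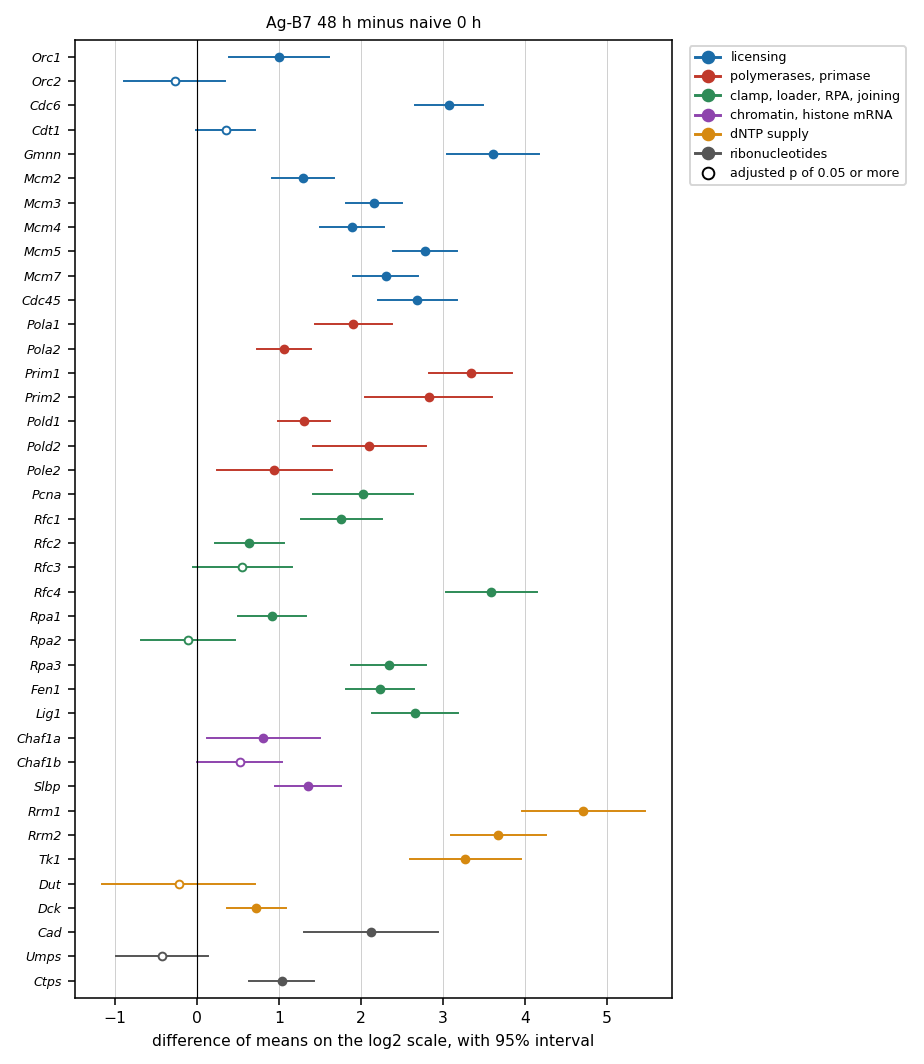
Difference of means between Ag-B7 at 48 h (4 arrays) and naive cells (3 arrays) on the log2 scale for the 39 tested genes, with limma's 95% interval; open points were not called. Rrm1 lies farthest to the right at 4.71, and the 7 open points include Orc2, Rpa2, Dut and Umps left of 0.

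Promoters of these genes are known for sites of E2F, the factor family that switches on S phase genes, and since most members rose together the letters near their start sites are shown. RefSeq promoter sequence of build GRCm38.p6, 250 bases before to 50 after each start, was found for 36 of the 40 genes. It was searched on both strands for 4 forms of E2F-type letters, of which TTGGCGC and TTCGCGC can overlap. Among the 36 members, TTCCCGC was present in 36.1%, against 9.57% of tested genes with an entry. For TTCGCGC the shares were 22.2% and 3.5%, for TTGCCGC they were 8.33% and 3.36%, and for TTGGCGC they were 27.8% and 5.54%. At least 1 form was present for 24 of the 36 members (66.7%), against 19.6% of 5058 tested genes with an entry and 10.9% of 27025 genes in the table. The share was 67.9% (19 of 28) among members called higher on Ag-B7 and 62.5% (5 of 8) among the rest. CCAAT was present in 58.3% of members and 43% of tested genes. A match is a run of letters and not a measured site.

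The sequences below show the upstream stretch with these letters, in capitals, for some members with large rises. The sequences also cover Mcm6, whose probe set stayed dim, and Rpa2, which was not called. They are written 5′ to 3′ on the strand of the gene. They lie upstream of the annotated start, at chr7:102441598-102441664 on the plus strand for Rrm1, chr11:98907983-98908049 plus for Cdc6, chr8:75109315-75109396 plus for Mcm5, chr10:128015170-128015214 plus for Prim1, chr1:128359712-128359844 minus for Mcm6 and chr4:132768293-132768359 plus for Rpa2.
Rrm1: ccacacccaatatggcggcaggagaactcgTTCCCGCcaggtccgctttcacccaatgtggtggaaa
Cdc6: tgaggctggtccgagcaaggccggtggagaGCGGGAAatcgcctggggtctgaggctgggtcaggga
Mcm5: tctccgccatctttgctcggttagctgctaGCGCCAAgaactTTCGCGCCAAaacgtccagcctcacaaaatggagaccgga
Prim1: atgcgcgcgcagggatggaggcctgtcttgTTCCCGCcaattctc
Mcm6: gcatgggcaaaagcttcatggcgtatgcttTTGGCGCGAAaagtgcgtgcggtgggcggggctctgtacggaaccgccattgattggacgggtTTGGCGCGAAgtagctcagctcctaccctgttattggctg
Rpa2: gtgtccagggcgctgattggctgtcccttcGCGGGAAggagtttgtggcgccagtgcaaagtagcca

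The Mcm6 stretch held 4 matches, as overlapping pairs, and the Mcm5 stretch held 3. The uncalled Rpa2 carried the same form as Cdc6, so the letters were present on both sides of the call. They were also absent from members that rose: Tk1, Cdc45, Pold2 and Pcna held none in the searched sequence. Rfc4 held them only after the start.

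With a cytokine the same genes were again high at 48 h. Ag-B7+IL12 had 31 of 39 called higher than naive and 0 lower (24.8% of all genes higher and 34% lower), with a median of 1.91. Ag-B7+IFNa/b had 30 higher and 0 lower (25.3% of all genes higher and 33.1% lower), with a median of 1.68. All arrays lay above the naive ones for 30 members with IL12 and 31 with IFNa/b, against 25.6% and 26.9% of all genes, and 0 lay below, against 34.8% and 35.4%. These comparisons and that of Ag-B7 share the 3 naive arrays. Pole2 was called in Ag-B7 and Ag-B7+IL12 but differed by 0.43 ± 0.35 in Ag-B7+IFNa/b (adjusted p 0.297), and Chaf1a was called in Ag-B7 alone. The call of Pole2 in Ag-B7+IL12 was lost without naive replicate 1, without naive replicate 2 and without any 1 of the 3 Ag-B7+IL12 arrays. Neither Pole2 nor Chaf1a was called between the 48 h groups themselves.

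Comparing the 48 h cultures with each other asks what the third signal adds. Of the 39 genes, 0 were called in Ag-B7+IL12 against Ag-B7, 0 in Ag-B7+IFNa/b against Ag-B7 and 0 in Ag-B7+IL12 against Ag-B7+IFNa/b, by limma, and 0 reached an unadjusted p under 0.05 in any of the 3. Calls over all genes were also few: 0.382% higher and 0.239% lower for IL12, 0.414% and 0.0159% for IFNa/b, and 0.287% and 0.653% between the cytokines. The member differences lay between -0.42 and 0.32 for IL12 (median -0.03) and between -0.51 and 0.25 for IFNa/b (median -0.12). With IFNa/b, 29 of the 39 differences were below 0, while the median of all genes was 0.0026.

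**Figure D3:**
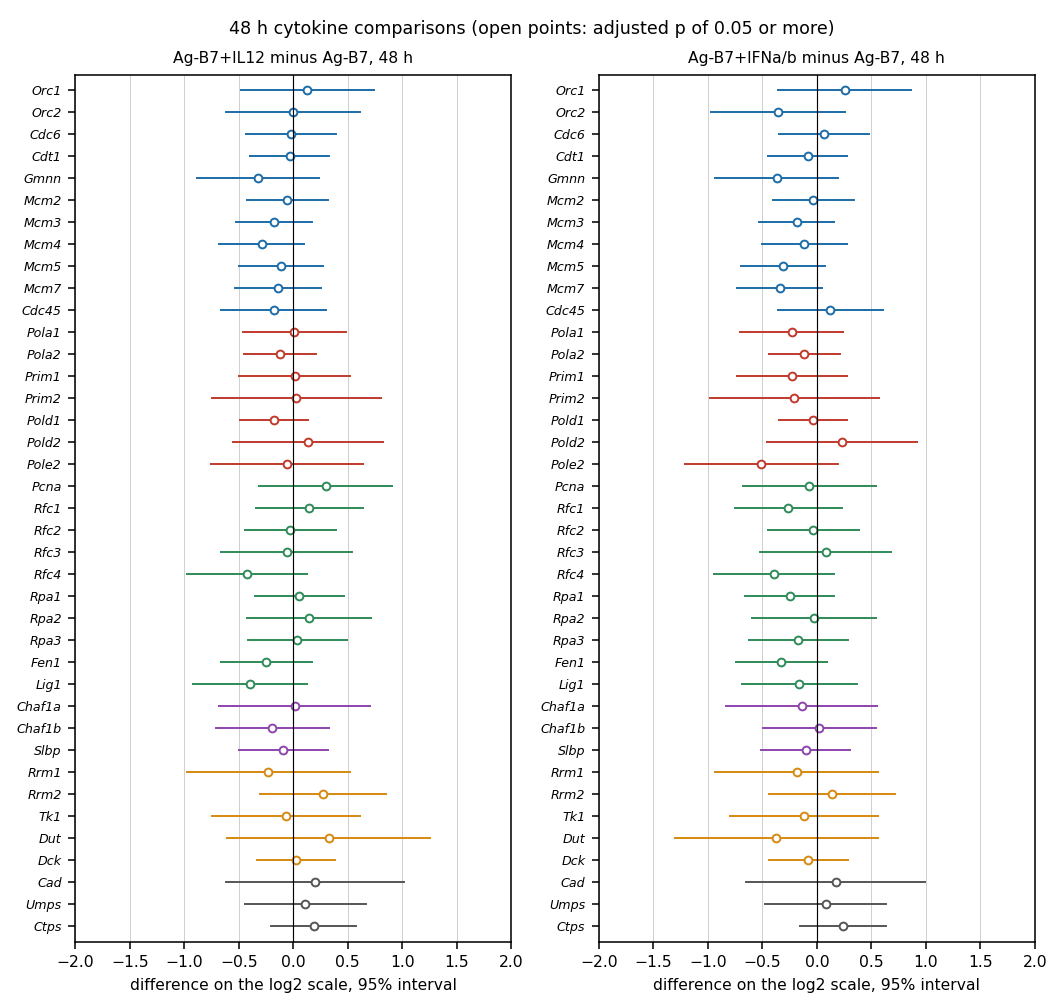
Differences of means on the log2 scale with limma's 95% intervals for Ag-B7+IL12 (3 arrays, left) and Ag-B7+IFNa/b (3 arrays, right) against Ag-B7 (4 arrays) at 48 h. All 39 points are open, meaning not called, and every interval spans 0.

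The replicate numbers paired the Ag-B7 and Ag-B7+IL12 arrays, and with the number as a block 0 members were called there too. In that fit Gmnn had the smallest p among members (-0.50, p 0.0534, adjusted p 0.754): it read 11.61, 11.11 and 11.05 with IL12, each below the Ag-B7 array of the same number. Without the block the 2 members with the smallest p were Rfc4 and Lig1. Rfc4 read 11.14, 10.93 and 11.15 with IL12, below all 4 Ag-B7 arrays, a difference of -0.42 with a 95% interval of -0.97 to 0.13. Lig1 read 11.08, 11.33 and 11.09, a difference of -0.40 (interval -0.92 to 0.13). In all, 1 member (Pcna) lay fully above and 3 (Mcm4, Rfc4 and Lig1) fully below the Ag-B7 arrays, against 3.55% and 3.62% of all genes.

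With IFNa/b the smallest p belonged to helicase subunits. Mcm7 had an intensity of 8341, 8158 and 5900.1 against 10003, 10296, 9659 and 7745 on Ag-B7, a log2 difference of -0.34 (interval -0.74 to 0.05), or -0.18 without Ag-B7+IFNa/b replicate 3. Mcm5 read 13.63, 13.63 and 13.39, a difference of -0.31 (interval -0.70 to 0.07). The arrays of Mcm3, Mcm5, Rfc4 and Rpa1 lay below all Ag-B7 arrays, 4 members of 39 against 3.46% of all genes, and 0 lay above, against 3.28%.

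Between the cytokines the members with the smallest p were Rfc1 and Dut. Rfc1 read 11.77, 11.09 and 11.35 with IL12 and 11.39, 10.81 and 10.78 with IFNa/b, a difference of 0.41 (interval -0.12 to 0.94), or 0.23 without Ag-B7+IL12 replicate 1. Dut read 7.79, 8.10 and 8.41 against 7.85, 6.71 and 7.65, a difference of 0.70 (interval -0.30 to 1.69), or 0.35 without Ag-B7+IFNa/b replicate 2. Here 5 members lay fully above (Orc2, Mcm5, Prim1, Pcna and Rpa1) and 1 (Pold1) fully below, against 6.05% and 6.59% of all genes. None of these intervals shows that the 48 h cultures were alike.

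Most members were already high at 24 h, where each stimulus had 1 array and there is no test. At a 2-fold limit, 28 of the 39 members were higher than the naive mean on the Ag-B7 array of 24 h (19.3% of all genes), 27 with IL12 (19%) and 27 with IFNa/b (19.2%), and 0 were 2-fold lower on any of them (32.5%, 30.6% and 32.1% of all genes). On each of these arrays 34 members exceeded all 3 naive arrays, against 32.8%, 32.4% and 32.6% of all genes. Rrm1 read 13.29, 13.42 and 13.35 on the 3 arrays, or 4.82 above the naive mean on Ag-B7, Rrm2 was 4.16 above it and Prim1 3.72. Umps (-0.11) and Rpa2 (-0.10) were the members below the naive mean on Ag-B7.

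From 24 to 48 h, 0 members moved 2-fold with any stimulus. Of all genes, 4.09% were 2-fold higher and 1.54% lower with Ag-B7, 4.98% and 2.42% with Ag-B7+IL12, and 3.31% and 0.971% with Ag-B7+IFNa/b. The median change was -0.09 with Ag-B7, -0.13 with Ag-B7+IL12 and -0.27 with Ag-B7+IFNa/b. Against the 48 h replicates, 27 of 39 members were higher at 24 h than all 3 Ag-B7+IFNa/b arrays (23.7% of all genes), compared with 16 for Ag-B7+IL12 (27.8%) and 11 for Ag-B7 (20.7%). On Ag-B7 the differences from 24 to 48 h were most negative for Prim2 (-0.54), Cad (-0.53) and Orc1 (-0.50). Relative to the Ag-B7 array of 24 h, the member median was -0.03 for IL12 and 0.06 for IFNa/b, with 0 members past 2-fold in either (2.15% of all genes higher and 1.27% lower for IL12, 1.69% and 1.21% for IFNa/b). With spike-in scaling these medians were 0.05 and -0.11, while the medians of all genes moved to 0.10 and -0.16. Relative to all genes the members stood at -0.05 for IL12 and 0.06 for IFNa/b on both scales. Spike-in scaling multiplies each array by a common factor, so this distance could hardly change.

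**Figure D4:**
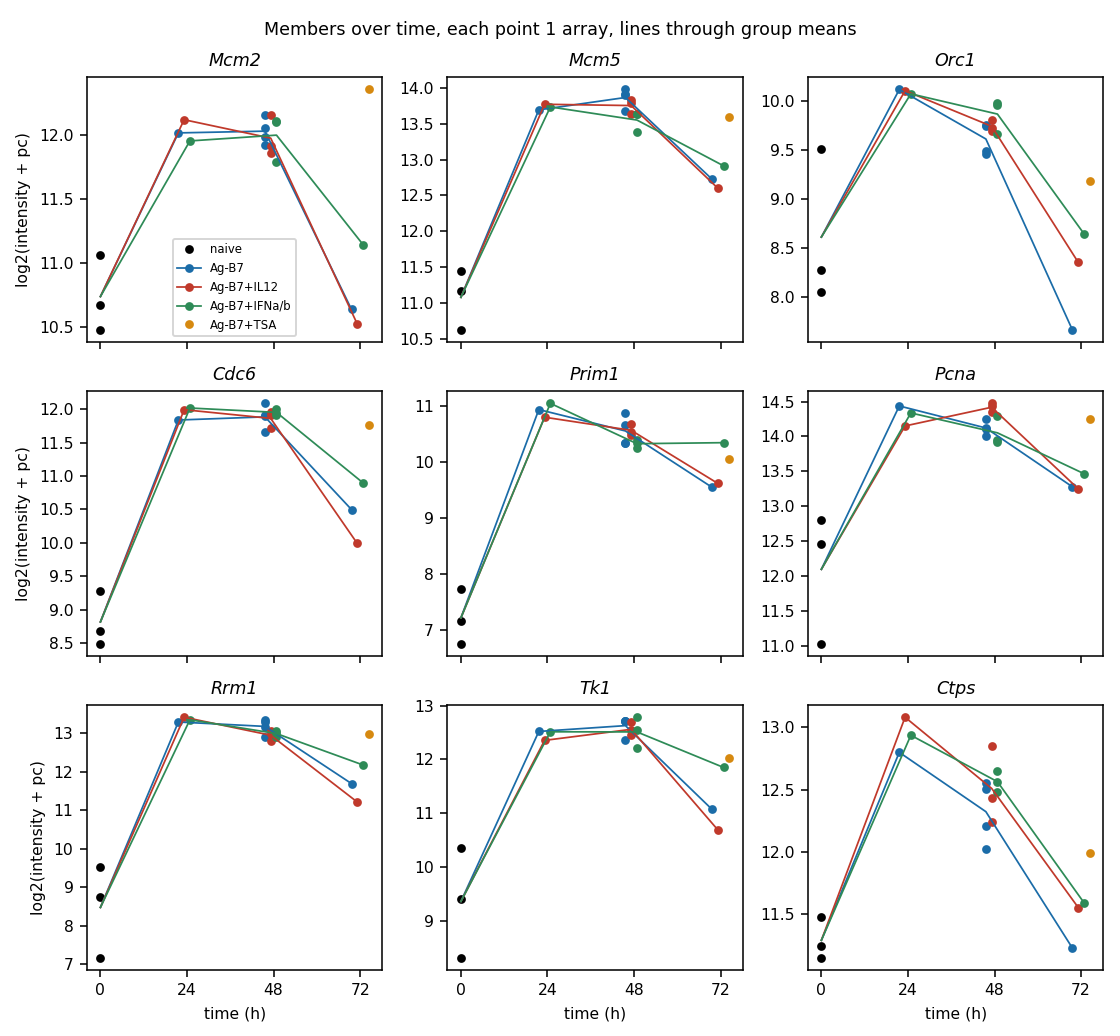
Values on the log2(intensity + pseudocount) scale of 9 members on every array by time in h, with lines through group means that start at the naive mean; points are shifted sideways by group. All 9 are high at 24 and 48 h and lower at 72 h on the Ag-B7 and Ag-B7+IL12 arrays, where Orc1 on Ag-B7 reaches 7.67, below the naive arrays.

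At 72 h, again with 1 array per stimulus and no test, most levels were lower than at 48 h. Relative to the 48 h mean of the same stimulus, 16 of 39 members were 2-fold lower on the Ag-B7 array (6.59% of all genes), 20 on Ag-B7+IL12 (6.39%) and 4 on Ag-B7+IFNa/b (4.2%), and 0 were 2-fold higher (9.16%, 9.3% and 6.75%). The member medians were -0.85, -1.05 and -0.41, while those of all genes were 0.17, 0.16 and 0.10. Below every 48 h replicate of their stimulus lay 29 members for Ag-B7 (24.9% of all genes), 34 for Ag-B7+IL12 (26.6%) and 24 for Ag-B7+IFNa/b (27%).

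On Ag-B7 more than one role contributed to the members past 2-fold. Of the 11 tested licensing and helicase genes 9 were 2-fold lower at 72 h, with 2 of 3 ribonucleotide synthesis genes and 2 of 5 deoxynucleotide supply genes, as were 1 of 7 polymerase and primase genes, 2 of 10 clamp, loader and joining genes and 0 of 3 chromatin genes. The median change was -1.39 for licensing, -1.10 for ribonucleotide synthesis, -0.68 for deoxynucleotide supply, -0.80 for polymerases and primase, -0.71 for clamp, loader and joining genes and -0.43 for chromatin genes. Orc1 differed by -1.95, at 7.67, Gmnn by -1.70, at 9.88, and Cdc45 by -1.57, at 10.25. Mcm2 read 10.64 against a naive mean of 10.74, and Ctps 11.23 against 11.29. By contrast Rrm1, Rrm2, Prim1 and Prim2 stood 3.22, 2.99, 2.33 and 2.46 above the naive mean, and 18 of 39 members were 2-fold above it (13.3% of all genes) and 0 below (16.1%).

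At 72 h, 2 of 39 members were higher than at 48 h on Ag-B7, 1 with IL12 and 9 with IFNa/b. On Ag-B7 these were Dck, 0.63 above its 48 h mean at 12.78 and above all 48 h arrays, and Orc2 (0.39). With IL12 the most negative were Rrm2 (-2.11, at 10.61), Cdc6 (-1.87) and Tk1 (-1.87), and only Prim2 was higher (0.17). With IFNa/b, Orc1 (-1.22), Rrm2 (-1.18) and Cdc6 (-1.06) were the most negative, while Orc2 (0.73), Pole2 (0.60) and Dck (0.50) were the highest. The 9 with IFNa/b included 5 of the 7 polymerase and primase genes, at 0.02 to 0.60, and with spike-in scaling 14 members were higher.

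Side by side at 72 h, the 3 additions to Ag-B7 gave different values, each against the same single Ag-B7 array. With IFNa/b 32 of 39 members were higher, with a median of 0.40 (-0.04 for all genes). Cdc45 (1.07) and Pold1 (1.00) passed 2-fold (3.93% of all genes) and 0 were 2-fold lower (3.57%). Orc1 (0.98) followed, while the lowest were Rrm2 (-0.36), Dck (-0.21) and Rpa2 (-0.11). With IL12, 28 of 39 were lower, with a median of -0.12, and Orc2 (-1.26) and Rrm2 (-1.16) passed 2-fold lower (4.14% of all genes) and 0 higher (5.22%), while Orc1 (0.69), Prim2 (0.56) and Dut (0.49) were the highest. With spike-in scaling the median was 0.24 and 26 of 39 members were higher, but that scaling also moved the median of all genes from -0.02 to 0.32. The members stood below it by -0.11 as deposited and -0.09 with spike-in scaling, a distance that a common factor per array can hardly change.

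Trichostatin A gave the highest values at 72 h. On the Ag-B7+TSA array 37 of 39 members were higher than on the Ag-B7 array, 11 of them past 2-fold (7.09% of all genes) and 0 past 2-fold lower (8.97%), with a median of 0.87 (0.01 for all genes). Mcm2 was 1.72 above the Ag-B7 array, Mcm7 1.56 and Orc1 1.52, and 6 of the 11 licensing genes passed 2-fold. Pole2 (-0.25) and Dck (-0.25) were the 2 members below it.

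Of the 4 arrays at 72 h, Ag-B7+TSA was the highest for 31 of 39 members, against 34.7% of all genes, and Ag-B7+IL12 the lowest for 27, against 24.4%. Set beside the 48 h Ag-B7 replicates, the Ag-B7+TSA array lay within their range for 18 members, above it for 7 (32.9% of all genes) and below it for 14 (24.3%). Mcm2 read 12.36 with TSA, above all 4 of those replicates, and Mcm7 13.28, within their range, whereas Tk1 read 12.02 and Gmnn 10.98, below it.

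**Figure D5:**
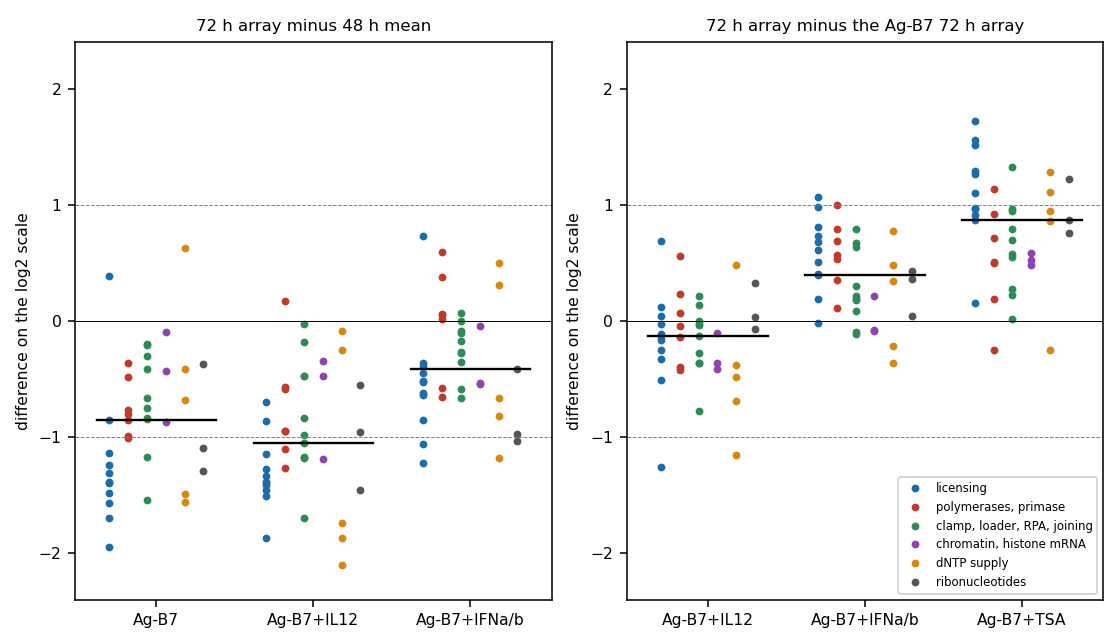
Differences on the log2 scale for the 39 tested members, 1 point per gene coloured by role, with a line at the median and dashed lines at 2-fold: left, the 72 h array minus the 48 h mean of the same stimulus; right, each 72 h array minus the Ag-B7 array of 72 h. The medians on the left are -0.85, -1.05 and -0.41, and on the right -0.12, 0.40 and 0.87.

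Other genes of the same pathways, 98 listed and 69 tested, gave the surroundings of these members. On Ag-B7 at 48 h, 40 were higher and 9 lower than in naive cells (26.1% and 35.6% of all genes), with a median of 0.90. Top2a, which untangles copied DNA, rose by 5.42, Tfdp1, the partner of E2F proteins, by 3.92, Tipin, of the fork protection complex, by 3.59, and Orc6 by 3.40. All 6 tested histone chaperones rose. The 9 lower ones were Ada, Dhodh, Shmt2, E2f5, Cdkn1b, Tk2, Rbl2, Ppat and Uck1, from -1.72 for Ada, the adenosine deaminase of purine breakdown, to -0.66 for Uck1.

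Of these lower genes, 2 act close to members. Dhodh, the mitochondrial enzyme that acts between Cad and Umps, differed by -1.31 ± 0.25 while Cad rose. Tk2, the mitochondrial thymidine kinase, differed by -0.95 ± 0.28, opposite to the cytosolic Tk1. Of 12 tested pyrimidine and deoxynucleotide enzymes outside the member list, 4 were higher and 3 lower. That split is not far from the one of all genes (26.1% higher and 35.6% lower). Against naive cells, 42 of the 69 genes were higher and 7 lower for Ag-B7+IL12 (24.8% and 34% of all genes). For Ag-B7+IFNa/b 41 were higher and 10 lower (25.3% and 33.1%). Among the 48 h groups 0 were called by limma, and 5, 5 and 2 had an unadjusted p under 0.05.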

How the data were processed

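The deposited values are intensity values on a linear scale, 1 per probe set for 12488 probe sets on 20 arrays. Per the submitters' processing notes they come from MAS5, whose version is not given in the sources. The mean without the outer 2% was 1000.46 to 1000.74 on every deposited array, so differences are relative to total signal. Values were used as log2(intensity + 46.39), the pseudocount being the median over arrays of the 20th percentile. The brightest probe set with 1 symbol stood for a gene. The 6279 genes tested passed the 40th percentile in 3 or more of 13 replicated arrays and were fitted with limma 3.58.1 (R 4.3.3): group means, a variance trend, 9 residual and 7.62 prior degrees of freedom, two-sided tests, Benjamini-Hochberg adjustment over all genes, threshold 0.05. Groups with 1 array were compared by values and counts past 2-fold.

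Members, roles, the other pathway genes and markers were chosen with earlier results of these data known. Within each role, genes named with array values are the 3 largest differences and the smallest, every uncalled gene and, among 48 h groups, the 2 smallest p. Other pathway genes named are the 4 largest and all those lower. Other genes were named as examples after their values were seen.

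Deviations of same-numbered arrays correlated at 0.276 to 0.28 for Ag-B7 and Ag-B7+IL12 at 48 h, where the numbers were taken as pairs. Elsewhere not every such pair exceeded 0.1. Arrays with different numbers reached 0.454, for Ag-B7 replicate 4 and Ag-B7+IFNa/b replicate 3. On simulated data for Ag-B7 against naive (6279 genes), 89% of changes of 2 log2 units and 40% of changes of 1 were recovered, with 3.01% false calls. Far fewer genes were changed there than the 1640 higher and 2236 lower called in the data, so these rates may not carry over. Alternatives were another pseudocount, no filter, 3 scalings, a fit of every probe set, no trend, array weights, the replicate block and leaving out arrays. A run on the mean over probe sets divided some genes by a wrong number of probe sets. Its values are listed below only as they came out and do not show the effect of averaging. The number of arrays limits the precision. Sequences are RefSeq's.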

Additional observations from a re-analysis of the deposited data

Results flagged for a closer look

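Of 40 genes examined for a single array that stood apart among the 4 Ag-B7 arrays of 48 h, 3 did so; chance marks about 1 in 20 such groups. Rfc1 read 11.55 on replicate 1, with the nearest other array at 11.17. Rrm2 read 12.72 on replicate 2, with the nearest at 12.38. Tk1 read 12.37 on replicate 4, with the nearest at 12.71.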

How the results depend on the processing

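The counts of members called higher than naive stayed within 1.5 times under every alternative used. They were at most 39 for Ag-B7, 39 for Ag-B7+IL12 and 38 for Ag-B7+IFNa/b. With 1 array left out they were 30 to 33, 29 to 32 and 29 to 32. Members called lower, 0 as reported, were 1 for Ag-B7 without the filter and with array weights (0 to 1 with an array left out), 1 for Ag-B7+IL12 with array weights, and for Ag-B7+IFNa/b 1 without the filter and 2 with array weights (0 to 2 with an array left out). With the replicate number as a block, 34, 32 and 31 members were called higher than naive and 0 among the 48 h groups. In Ag-B7+IFNa/b against Ag-B7, 3 members (Gmnn, Mcm7 and Fen1, 0 without the block) then had an unadjusted p under 0.05. Their adjusted p was 0.557 to 0.599, by limma. Deviations of same-numbered Ag-B7 and Ag-B7+IFNa/b arrays correlated at 0.112, -0.0418 and -0.0966. Those of naive and Ag-B7 arrays correlated at 0.144, -0.0432 and -0.0601, so the numbers are not shown to mark pairs in these comparisons.

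The median member against naive was, for Ag-B7, 2.58 with median centring, 3.46 with spike-in scaling, 1.01 with the mean over probe sets, 1.53 with array weights and 1.56 with naive replicate 1 as the only naive array (1.49 to 1.91 with an array left out). For Ag-B7+IL12 it was 2.55, 3.28, 1.08, 1.72 and 1.5005 in that order and 1.75 without the filter (1.60 to 2.06). For Ag-B7+IFNa/b it was 2.32 with median centring, 3.32 with spike-in scaling, 0.89 with the mean over probe sets, 1.80 with quantile normalization and 1.52 with naive replicate 1 alone (1.59 to 1.68). The values 1.01, 1.08 and 0.89 come from the run that divided some genes by a wrong number of probe sets. Mcm3 was 4.54 there for Ag-B7, above both of its probe sets (2.16 and 2.39). These 3 medians therefore do not show that averaging lowers the rise. With spike-in scaling the median was -0.23 for Ag-B7+IL12 against Ag-B7 and -0.24 against Ag-B7+IFNa/b.

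Signs of uncalled genes turned under some alternatives. Orc2 was 0.31 with quantile normalization, 0.39 with median centring, 1.26 with spike-in scaling and 0.36 with naive replicate 1 alone. Rpa2 was 0.35, 0.56 and 1.46 with the 3 scalings, 0.032 with the replicate block, and -0.34 to 0.07 with an array left out (0.068 without naive replicate 1, 0.032 without Ag-B7 replicate 4). Dut was 0.45, 0.37 and 1.12 with the 3 scalings, 0.94 with naive replicate 1 alone and -0.80 to 0.23 with an array left out. Umps was 0.28 with median centring, 1.27 with spike-in scaling and 0.083 with naive replicate 1 alone. In the run on the mean over probe sets, Lig1 was 0.021 in Ag-B7+IL12 and Mcm5 0.30 in Ag-B7+IFNa/b against Ag-B7. The calls of Mcm5, Pola2, Pold1 and Lig1 in Ag-B7 against naive were lost there. That run divided some genes by a wrong number of probe sets, so these values and lost calls do not show the effect of averaging. The causes of the other changes of sign were not tested.

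For single arrays, with spike-in scaling 7 members were 2-fold lower at 48 than at 24 h with IL12 (1 higher with a pseudocount of 16), 25 lower at 72 than at 48 h with Ag-B7 (27 with median centring) and 1 with IFNa/b (7 with median centring). With spike-in scaling 34 members were 2-fold above naive at 72 h on Ag-B7 (1 lower with a pseudocount of 16), and against the Ag-B7 array of 72 h 0 were lower with IL12, 18 higher with IFNa/b and 22 with TSA. At 24 h, 1 was lower with IL12 than without it with a pseudocount of 16 and with median centring.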
